A study of Mus musculus with 36 samples.

Results

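The anterior cruciate ligament (ACL) holds the tibia in place under the femur, and its injury is a common start of post-traumatic osteoarthritis. What is described here is the contrast of 3 mouse knees taken 24 h after ACL injury, from mice given 0.9% saline as vehicle, with 3 sham knees without ACL injury taken at the same time after the procedure. These 6 libraries, of 36 in the series, were found by matching the alignment file named in each count column to the sample titles Sham1 to Sham3 and ACL1 to ACL3. Strain, age, sex, the way the injury was made and whether sham mice were given saline are not stated in these sources, and each library is described only as a biological replicate. The study as a whole asked how protein kinase C and the Hippo pathway act in the injured joint. In the first day after a joint injury, synovial fibroblasts and macrophages are known to release chemokines and cytokines of the interleukin-1 and interleukin-6 families, neutrophils and monocytes enter from the blood, and proteases begin to cut the matrix. Hyaluronan and lubricin, the main lubricants of synovial fluid, come from the fibroblasts that line the joint.

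Total RNA depleted of ribosomal RNA was sequenced as read pairs of 100 bp, and the deposited counts summed to 124309584 to 187571647 per library. Gene models of 7SL, which helps guide secreted proteins to the endoplasmic reticulum, took 96.7% to 98.1% of them, with reads that map to several copies counted at each. With 7SL, U3 and 5S copies set aside, 2299707 to 4509806 counts were left per library, and these carry every gene result below. In sham 1, 26.1% of them fell on Nemf alone, with 1177819 counts against 45 to 71 in the other 5 libraries. A normalised count is a count scaled from its own library's TMM-adjusted size to the average of these sizes, 3182736 counts. On this scale Gm28661 and Gm10925, nuclear copies of mitochondrial sequence, averaged 302500 and 218500 in sham and 164500 and 124400 in vehicle knees. Each library of 3 per group is 1 value, and the counting error of low counts adds to the spread between knees.

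The labels of these libraries give knee joint tissue, while protocol text attached to the other sets speaks of knee cartilage for this one. The RNA held many tissues. Per kilobase of exon and averaged over the 6 libraries, Col1a1 of bone and fibrous tissue stood at 7778 normalised counts, the neutrophil gene S100a9 at 5447, the globin gene Hbb-bs at 2004, the muscle actin Acta1 at 1513, the osteoblast gene Bglap2 at 1320 and the cartilage collagen Col2a1 at 571. Of the 26 cartilage, 20 skeletal muscle, 19 erythroid and 20 B lineage markers in the table, 20, 20, 18 and 16 had enough counts to be tested. None of these markers was without a count, but that sets little apart. The 15 T and NK cell markers all had a count too, and 3 of them had enough to be tested. Skeletal muscle moved with the groups: its 20 markers summed to 16660, 19510 and 40740 normalised counts in sham 1 to 3 and to 16450, 9857 and 13770 in vehicle 1 to 3, so that every vehicle library lay below every sham library. The same separation held for summed markers of adipocytes, connective tissue fibroblasts, neutrophil secondary granules and maturity, and the B lineage. They stood at 57.8%, 57.4%, 57.3% and 70.6% of the sham mean. Schwann cell and nerve, antigen presentation and dendritic cell, and interferon-stimulated sums were also lower in every vehicle library, at 74.1%, 78.0% and 86.9%. The neutrophil sum leans on abundant genes such as S100a9, against a list median of 70.1 per kilobase. Sham 3 had the highest muscle, cartilage, adipocyte, fibroblast and neutrophil sums of the 6. In bulk tissue, fewer cells of a type and less RNA per cell cannot be told apart.

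**Figure D1:**
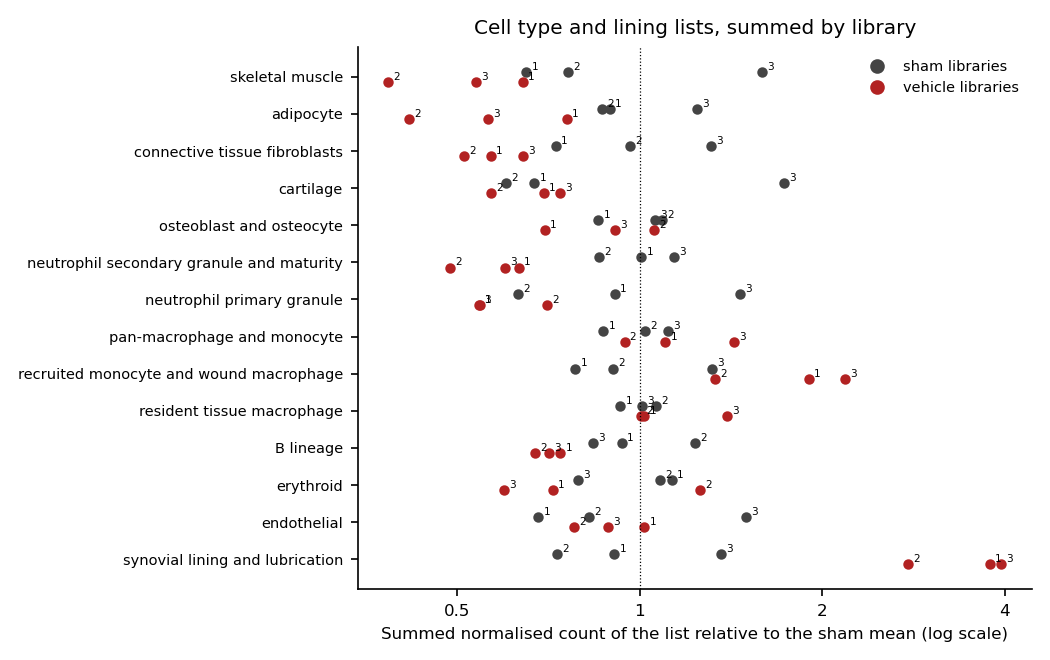
Summed normalised counts of 14 gene lists in each library, divided by the sham mean of that list (horizontal log scale); grey points are the 3 sham libraries, red points the 3 vehicle libraries, and the small digits are replicate numbers. Muscle, adipocyte, fibroblast, neutrophil secondary granule and maturity, and B lineage sums lie lower in all vehicle libraries than in any sham library. The synovial lining sum lies higher in all of them.

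Of 12602 genes that passed the filter on low counts, 297 (2.36%) differed between injured and sham knees at an adjusted p below 0.05 in edgeR's quasi-likelihood test with Benjamini-Hochberg adjustment, which gives every adjusted p below. Injury was the higher side for 170 (1.35%) and the lower side for 127 (1.01%), and 291 of the 297 are annotated as protein-coding. The median log2 fold change was 1.72 among the genes that rose, -1.24 among those that fell, and -0.01 over all genes tested. An unadjusted p below 0.05 in the same test was found for 1542 of the 12602. Counts of such p in the lists below are to be read against that share. Per the gene lists, the genes that rose held chemokines, cytokines, acute phase proteins, lining and wound matrix genes and macrophage genes. Those that fell held muscle, fat, fibroblast and neutrophil granule genes. Outside the lists, 18 of the 127 that fell were replication-dependent histone genes, which share reads and are described under other observations. How many genes were called changed with the libraries and the covariate in the fit. In a fit with all 9 libraries of the set, in which the 3 knees injured and treated with a protein kinase C inhibitor add to the shared spread, 39 of 13391 genes (0.291%) were called, 35 higher (0.261%) and 4 lower (0.0299%), and all 39 are among the 297. Leaving out 1 of the 6 libraries gave 125 to 354 calls, the fewest without vehicle 3, and 99 of the 297 kept their call in each of these 6 fits. With the muscle level of each library as a covariate, which itself separates the groups, 65 of the 297 kept theirs. In that fit 10 chemokines, 7 wound macrophage, 6 acute phase, 3 immediate-early and 2 synovial lining genes were called higher, and no gene of the muscle, fibroblast or neutrophil granule lists was called lower. Loss of the muscle calls follows from the covariate, which was built from those genes. For the fibroblast and neutrophil genes, a covariate that separates the groups cannot tell a muscle share from lost power. The part of the other cell types whose markers moved with the groups was not tested.

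**Figure D2:**
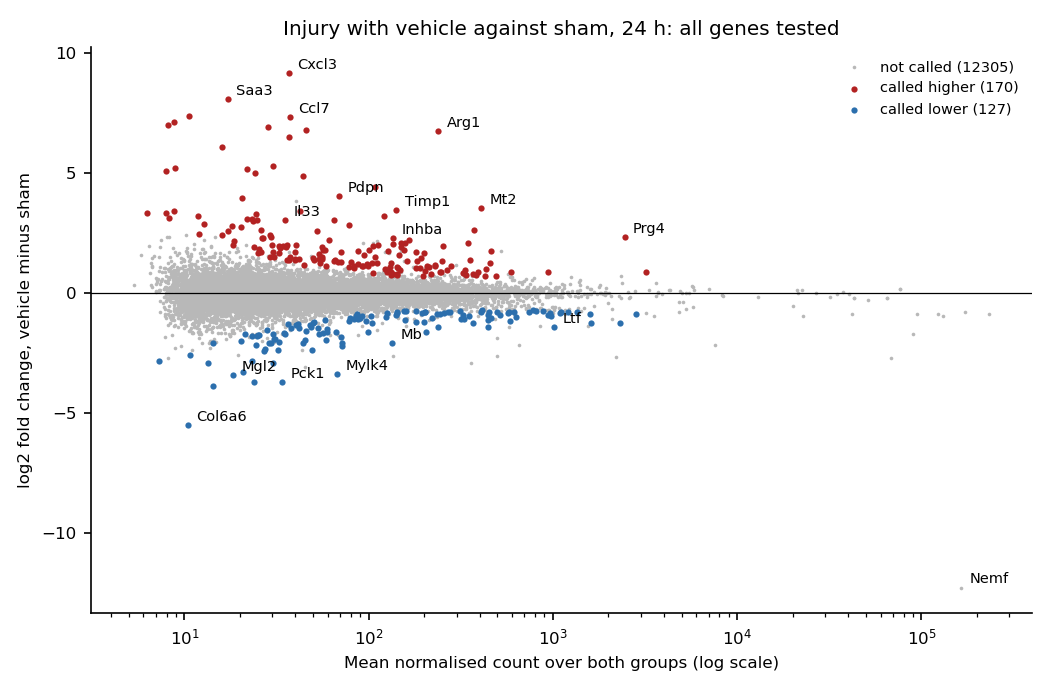
Log2 fold change of vehicle against sham (vertical axis) against the mean normalised count over both groups (horizontal, log scale) for the 12602 genes tested; red genes were called higher, blue genes lower, grey genes not called. The largest positive values belong to genes with few or no counts in sham knees, for which the fitted value is no bound; the grey point near the bottom is Nemf.

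**Figure D3:**
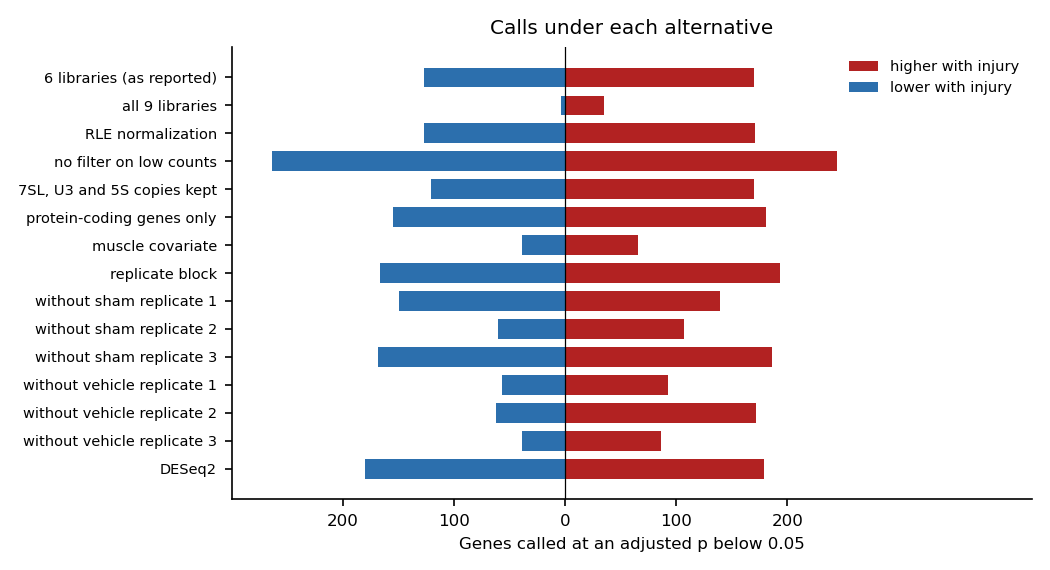
Number of genes called higher (red, to the right) and lower (blue, to the left) with injury in the 6-library fit and under each alternative. The 9-library fit has 35 and 4, against 170 and 127 as reported.

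Chemokines, the secreted proteins that draw leukocytes into tissue, summed over all 31 in the list to 1361, 1370 and 1228 normalised counts in sham 1 to 3 and to 2775, 1626 and 2817 in vehicle 1 to 3. Of these 31, 15 had enough counts to be tested, and 11 rose and none fell, 6 of them called with 9 libraries. The other 4 did not pass. With at most 3 counts over all sham libraries, 7 of the 15 entered the test through the injured knees alone, so that the median of the tested members, 2.08, describes a selected set. Ccl7 and Ccl2 are neighbours on chromosome 11 (mm10, 82045712 to 82047525 and 82035571 to 82037453) and encode monocyte attractants that act on the receptor CCR2. Normalised counts of Ccl7 were 0, 0.941 and 0 in sham 1 to 3 and 70.0, 67.4 and 85.1 in vehicle 1 to 3. Ccl2 had 0, 0 and 2.74 in the sham libraries and 63.9, 47.8 and 108 in the vehicle libraries. The sham knees thus held at most a few reads of either gene, and all 3 injured knees were well above them. The ratio of summed counts was 221 for Ccl7 (95% exact counting interval 39.3 to 8775, adjusted p = 1.08e-07, called with 9 libraries) and 108 for Ccl2 (29.6 to 898, adjusted p = 2.94e-06).

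Cxcl5, Cxcl3, Cxcl1 and Cxcl2 lie within 1 cluster on chromosome 5 and encode ligands of the neutrophil receptor CXCR2. Cxcl2 had 0, 1.88 and 0 normalised counts in sham and 168, 44.3 and 60.4 in vehicle knees, a ratio of 125 (95% exact counting interval 34.2 to 1038, adjusted p = 6.72e-04, called with 9 libraries). Cxcl5 had 0, 0.941 and 0 against 62.7, 39.2 and 68.3 (ratio 166, interval 29.3 to 6581, adjusted p = 1.75e-06). Cxcl1 had 0, 0 and 4.10 against 49.5, 39.2 and 38.6 (ratio 41.7, interval 13.9 to 205, adjusted p = 1.04e-04). Vehicle 1 was the highest library for Cxcl1, Cxcl2 and Cxcl3. Cxcl3 had no count in any sham library and 113, 22.2 and 86.1 normalised counts in the vehicle libraries, at least 23.5-fold higher than 3 counts per library (adjusted p = 0.00917, and 0.0533 without sham 3). The bases before the RefSeq start of Cxcl1, Cxcl2 and Cxcl3 are shown because they share a run of 11 bases, in capitals, that matches the NF-kB motif on both strands, 71, 97 and 73 bases before that start. Each stretch stops where the gene begins in the deposited table or, if that lies later, at the RefSeq start, which leaves 4, 28 and 0 bases unprinted before the latter (GRCm38.p6, plus strand, chr5:90890995-90891240, chr5:90903649-90903870 and chr5:90785851-90786100).
Cxcl1: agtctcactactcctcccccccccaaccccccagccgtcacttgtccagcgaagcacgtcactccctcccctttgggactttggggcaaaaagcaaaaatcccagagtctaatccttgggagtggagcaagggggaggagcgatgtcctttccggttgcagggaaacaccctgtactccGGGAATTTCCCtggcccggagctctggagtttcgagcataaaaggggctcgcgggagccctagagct
Cxcl2: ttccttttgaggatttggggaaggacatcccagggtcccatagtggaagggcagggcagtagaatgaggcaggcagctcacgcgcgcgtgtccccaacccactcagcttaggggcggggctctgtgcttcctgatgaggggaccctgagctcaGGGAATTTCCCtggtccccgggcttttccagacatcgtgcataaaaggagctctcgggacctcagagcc
Cxcl3: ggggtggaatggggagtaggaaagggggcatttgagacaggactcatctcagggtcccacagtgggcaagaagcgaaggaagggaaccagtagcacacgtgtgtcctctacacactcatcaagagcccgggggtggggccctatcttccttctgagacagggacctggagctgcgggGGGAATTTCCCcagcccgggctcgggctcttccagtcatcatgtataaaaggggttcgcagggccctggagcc
The motif stands on either strand in the 250 bases before the start in 3.9% of 32851 RefSeq promoters, in 5.55% of the 9251 tested genes that have one, and in 16 of the 118 genes that rose and have one (13.6%). Of the 99 genes that fell and have one, 6 (6.06%) hold the motif. A match is a stretch of letters and not a measured binding site.

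Of the other chemokines that rose, Ccl6 went from 116, 160 and 118 to 640, 364 and 669 normalised counts, which is 2.09 ± 0.23 (SE) on the log2 scale (adjusted p = 8.81e-06). Cxcl14, a chemokine of stromal cells, went from 53.6, 57.4 and 72.5 to 352, 178 and 236 (2.07 ± 0.24, adjusted p = 1.82e-05), Pf4 (platelet factor 4) from 40.2, 41.4 and 47.9 to 146, 118 and 240 (1.97 ± 0.26, adjusted p = 8.06e-05), and Ccl9 rose by 2.02 ± 0.27 (adjusted p = 1.11e-04). These 4 had counts in every sham knee and were called with 9 libraries. Ccl4 had 1 read in the sham knees and 67.5, 11.1 and 16.8 normalised counts after injury, a ratio of 85.3 (interval 14.9 to 3408, adjusted p = 0.00154). Cxcl12, which holds blood precursors in the marrow, had 963, 838 and 804 in sham and 604, 420 and 657 in vehicle knees, a difference that did not pass (adjusted p = 0.118). Among 10 tested chemokine receptors 2 rose, among them Ccr2, the receptor of CCL2 and CCL7, by 1.29 ± 0.26 (adjusted p = 0.00623, up to 0.0981 without sham 2 or vehicle 3).

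**Figure D4:**
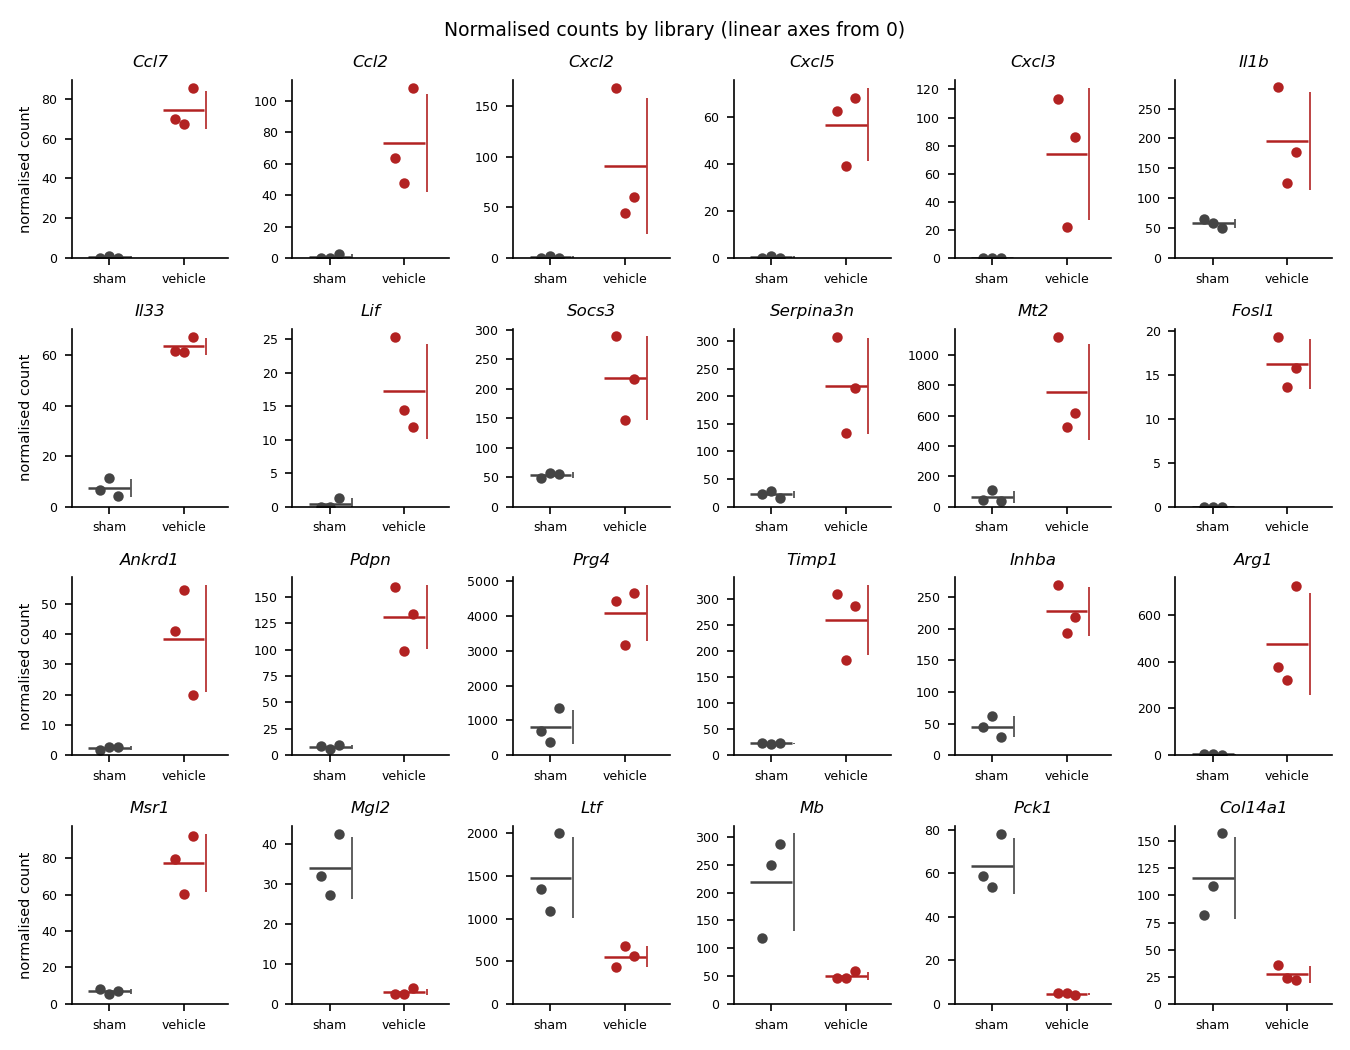
Normalised counts of 24 genes in each library, on linear axes from 0; points are libraries in replicate order, horizontal bars group means and thin vertical lines the SD (n = 3). Sham knees are grey and vehicle knees red, and no point of one group reaches the range of the other in any of the 24 genes. All 24 were picked from called genes, so this separation follows in part from the choice. For libraries that do not differ by group, 3 against 3 would separate fully with a probability of 0.1 per gene. The share of all tested genes without overlap is not given here.

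In the interleukin-1 and TNF axis 5 of 15 tested genes rose and none fell (median 1.10). Il1b, the inducible interleukin-1 cytokine, went from 65.3, 58.4 and 50.6 normalised counts in sham to 286, 125 and 177 in vehicle knees (log2 fold change 1.73 ± 0.26, adjusted p = 4.47e-04). Il33, an alarm cytokine kept in the nuclei of stromal cells, went from 6.70, 11.3 and 4.10 to 61.5, 61.4 and 67.3 (3.04 ± 0.40, adjusted p = 5.02e-05, called with 9 libraries). Each injured knee held several times the Il33 of any sham knee, and the 3 agreed closely. Il1rl1, which encodes the receptor of interleukin-33, rose by 1.86 ± 0.39 (adjusted p = 0.00876, up to 0.0925 without vehicle 1 or vehicle 3), and the interleukin-1 receptor gene Il1r1 by 1.49 ± 0.32 (adjusted p = 0.0113, up to 0.0853 without sham 1, sham 2, vehicle 1 or vehicle 3). Tnfrsf12a, the receptor of the cytokine TWEAK, had an adjusted p of 0.0362 that passed in no fit without 1 library other than the one without sham 3 (up to 0.16). Tnf and Il1a stayed under the filter, at 8.37, 9.41 and 10.9 against 3.62, 7.67 and 7.92 and at 1.67, 1.88 and 2.74 against 6.03, 3.41 and 2.97. Il1rn, which encodes the natural antagonist of the interleukin-1 receptor, had overlapping groups (adjusted p = 0.586). Of 23 tested NF-kB feedback and target genes only Cd14, a co-receptor for bacterial lipopolysaccharide, was called: it went from 15.1, 13.2 and 12.3 to 162, 60.6 and 125 (3.06 ± 0.36, adjusted p = 1.49e-05). The list had 19 positive values, a median of 0.53 and 8 unadjusted p below 0.05, and its summed normalised counts were 1200 to 1221 in sham and 1342 to 1664 in vehicle knees. The inhibitor gene Nfkbia had an adjusted p of 0.513 and Tnfaip3 one of 0.474.

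Cytokines of the interleukin-6 family signal through the shared receptor chain gp130 and the transcription factor STAT3. Of 16 tested genes in the list of this family and of STAT3 feedback 5 rose and none fell (median 0.71). Of those tested, 2 had at most 3 counts in the sham libraries. Il11 had no count in the sham knees and 21.7, 12.8 and 28.7 normalised counts after injury, at least 6.70-fold higher than 3 counts per library (adjusted p = 5.27e-04). Lif had 0, 0 and 1.37 against 25.3, 14.5 and 11.9, a ratio of 49.6 (95% exact counting interval 8.50 to 1998, adjusted p = 0.0027, and 0.0545 without vehicle 1). Osm, made by myeloid cells, went from 13.4, 12.2 and 17.8 to 90.5, 28.1 and 54.4 (1.99 ± 0.42, adjusted p = 0.00839, up to 0.133 without sham 2, vehicle 1 or vehicle 3). Socs3, the STAT3-induced inhibitor of the same receptors, went from 47.7, 57.4 and 54.7 to 290, 147 and 217 (2.02 ± 0.24, adjusted p = 1.85e-05). Il4ra, a list member that encodes a chain of the interleukin-4 receptor and not a gp130 cytokine or receptor, rose by 1.91 ± 0.27 (adjusted p = 3.22e-04). Il6 itself was counted in few reads, at 0.837, 0 and 0 against 12.1, 2.56 and 0, and was not tested. The promoter of Lif (GRCm38.p6, plus strand, chr11:4257318-4257556) is shown for its AP-1 motif, TGACTCA or TGAGTCA, in capitals, which begins 228 bases before the RefSeq start. The stretch stops at the gene start of the deposited table, 11 bases before the RefSeq start.
Lif: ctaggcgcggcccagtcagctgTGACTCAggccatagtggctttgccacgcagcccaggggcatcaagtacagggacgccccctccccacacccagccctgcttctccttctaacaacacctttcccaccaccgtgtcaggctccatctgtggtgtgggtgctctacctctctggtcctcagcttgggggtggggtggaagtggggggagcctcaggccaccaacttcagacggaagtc
That motif stands in 4.46% of all RefSeq promoters, in 4.05% of those of tested genes and in 16 of 118 (13.6%) of those of genes that rose. Among genes that fell it stands in 4 of 99 (4.04%). A TEAD motif, also searched for, stands in 12.7% of the promoters of tested genes. It stands in 22 of 118 (18.6%) of those of genes that rose and 15 of 99 (15.2%) of those that fell. Differences between these shares were not tested.

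Acute phase and metal-binding genes gave 6 of 14 tested members higher and none lower (median 0.82). Of those tested, 2 had at most 3 counts in the sham libraries. Serpina3n, a secreted protease inhibitor, went from 22.6, 29.2 and 16.4 to 308, 134 and 215 normalised counts (3.22 ± 0.30, adjusted p = 2.19e-06, called with 9 libraries). Saa3, a serum amyloid made in inflamed tissue, had no count in sham and 31.4, 14.5 and 57.4 in vehicle knees, at least 10.9-fold higher than 3 counts per library (adjusted p = 1.53e-04, called with 9 libraries). Both metallothioneins, small proteins that bind zinc and copper, rose. Mt1 went from 111, 114 and 82.1 to 929, 482 and 512 (2.63 ± 0.25, adjusted p = 1.75e-06, called with 9 libraries). Mt2 went from 42.7, 111 and 38.3 to 1119, 528 and 620 (3.54 ± 0.51, adjusted p = 0.0204, and 0.159 without sham 3). The zinc importer gene Slc39a14 rose by 2.21 ± 0.23 (adjusted p = 2.94e-06). Serpina3m, at least 5.56-fold higher than 3 counts per library (adjusted p = 0.00169), shares exon bases with Serpina3k, and its reads cannot be split from that copy. Lcn2, an acute phase gene that also marks neutrophil granules, had 375, 252 and 554 against 271, 213 and 252 and did not pass (adjusted p = 0.169).

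Immediate-early genes encode transcription factors and feedback inhibitors that cells can induce without new protein. Of 28 tested, 9 rose and none fell (median 0.49). Of those tested, 1 had at most 3 counts in the sham libraries. Fosl1, an AP-1 subunit, had no count in the sham knees and 19.3, 13.6 and 15.8 after injury, at least 5.17-fold higher than 3 counts per library (adjusted p = 0.0013, called with 9 libraries). Fos went from 20.9, 24.5 and 31.5 to 84.4, 64.0 and 116 (1.80 ± 0.31, adjusted p = 0.00121, called with 9 libraries), Junb from 67.8, 51.8 and 49.2 to 310, 155 and 260 (2.08 ± 0.25, adjusted p = 1.85e-05), and the small Maf gene Maff rose by 2.33 ± 0.44 (adjusted p = 0.0027, called with 9 libraries). These 4 AP-1 and Maf genes were all clear of their sham range, which follows in part from their being called. Ier3, Egr1 and Cebpb rose by 2.58 ± 0.41, 1.72 ± 0.30 and 1.57 ± 0.28. Atf3 (adjusted p = 0.0304) and Dusp1 (adjusted p = 0.0258) lost their calls without vehicle 1 or sham 3, Atf3 also without sham 1 or vehicle 3 and Dusp1 without sham 2, with adjusted p up to 0.204 and 0.232. Jun (adjusted p = 0.086) and Myc (adjusted p = 0.582) did not pass.

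Among 21 tested targets of YAP and TAZ, the coactivators that Hippo kinases restrain, 2 rose and the median was -0.03. Ankrd1, a YAP target that is also induced in stressed muscle, went from 1.67, 2.82 and 2.74 to 41.0, 54.6 and 19.8 normalised counts (3.96 ± 0.59, adjusted p = 2.31e-04, called with 9 libraries). Ccn2 (connective tissue growth factor) went from 105, 81.0 and 95.8 to 177, 147 and 190 (0.87 ± 0.21, adjusted p = 0.024, up to 0.165 without sham 2, vehicle 1 or vehicle 3). Its relative Ccn1 had 36.8, 46.1 and 41.0 against 79.6, 71.6 and 87.1 and missed the threshold (0.94 ± 0.26, adjusted p = 0.0621). None of 22 tested Hippo pathway components and none of 11 tested protein kinase C and D isoforms was called, in this fit or with 9 libraries. Yap1 had 150, 156 and 149 against 156, 123 and 144, Wwtr1 (TAZ) an adjusted p of 0.846, and the kinase gene Lats1 121, 120 and 131 against 172, 167 and 133 (0.34 ± 0.20, adjusted p = 0.524). Prkca and Prkcd had adjusted p of 0.708 and 0.927. At an unadjusted p below 0.05 there were 3 Hippo genes and 1 kinase gene, against 1542 of all 12602 genes tested. DESeq2 called none of either list. RNA levels do not measure kinase activity. Among 13 tested EGFR ligands and ERK feedback genes Errfi1, an inhibitor of the receptor, rose by 1.77 ± 0.28 (adjusted p = 5.13e-04, called with 9 libraries). Hbegf had 7.54, 8.47 and 8.21 against 30.1, 19.6 and 24.7 (adjusted p = 0.1). In the TGF-beta and activin list 3 of 26 tested genes rose. Inhba, the subunit of activin A, went from 45.2, 62.1 and 28.7 to 269, 194 and 219 (2.29 ± 0.25, adjusted p = 3.75e-06), while Tgfb1 did not pass (adjusted p = 0.57).

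Genes of the synovial lining and of hyaluronan showed the largest ratio of summed level among the 54 lists, 350.0% of the sham mean. Of 15 tested, 7 rose and 1 fell (median 0.81), and the list's summed normalised counts were 1365, 1099 and 2051 in sham 1 to 3 and 5683, 4173 and 5942 in vehicle 1 to 3. Most of that sum is Prg4, which encodes lubricin: 693, 392 and 1346 in sham against 4422, 3172 and 4666 in vehicle knees (2.34 ± 0.39, adjusted p = 0.0081, and 0.0542 without vehicle 1). Pdpn (podoplanin), a surface glycoprotein of activated synovial fibroblasts, went from 8.37, 5.65 and 9.57 to 159, 98.9 and 134 (4.05 ± 0.33, adjusted p = 1.07e-07, called with 9 libraries). The hyaluronan-binding protein gene Tnfaip6 went from 3.35, 4.71 and 5.47 to 50.7, 40.1 and 42.6 (3.30 ± 0.47, adjusted p = 1.51e-04). Enzymes that make hyaluronan were higher as well: Ugdh, which supplies its sugar precursor, rose by 1.33 ± 0.20 (adjusted p = 2.73e-04), Has1 by 3.20 ± 0.69 (adjusted p = 0.0101) and Has2 by 2.47 ± 0.61 (adjusted p = 0.0295). The call of Has1 ended without sham 2, vehicle 2 or vehicle 3 (up to 0.082), and that of Has2 without any 1 library (up to 0.142). Cd44, the hyaluronan receptor (0.81 ± 0.20, adjusted p = 0.0284), lost its call without sham 1, sham 2, vehicle 1 or vehicle 3 (up to 0.208). Ugdh shares exon bases with the gene model Gm43552. Clic5, a chloride channel gene and the exception in the list, fell from 78.7, 77.2 and 109 to 38.6, 23.0 and 31.7 (-1.51 ± 0.29, adjusted p = 0.00346).

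The fibronectin-rich matrix of a fresh wound and its receptors gave 6 of 21 tested genes higher and none lower (median 0.29). Itga5, a chain of the main fibronectin receptor, rose from 61.1, 40.5 and 31.5 to 152, 130 and 185 (1.78 ± 0.25, adjusted p = 1.53e-04). The proteoglycan versican gene Vcan rose by 1.46 ± 0.21 (adjusted p = 1.52e-04), the syndecan gene Sdc4 by 1.59 ± 0.24 (adjusted p = 3.18e-04) and the fibulin gene Fbln2 by 1.79 ± 0.25 (adjusted p = 1.84e-04). These 4 were called with 9 libraries. Fn1 itself had 1267, 1381 and 2680 against 2924, 2015 and 3782, with overlapping groups (0.71 ± 0.29, adjusted p = 0.286). Spp1 (osteopontin), at 0.87 ± 0.21, lost its adjusted p of 0.0232 without sham 1, sham 2, vehicle 1 or vehicle 3 (up to 0.173). Of 24 tested genes of fibrillar collagens and their cross-linking, the lysyl oxidase gene Lox rose by 1.17 ± 0.20 (adjusted p = 0.00145, called with 9 libraries) and Col14a1 fell, while Col1a1, at 44590, 46500 and 78210 against 43020, 44410 and 49540, did not pass (adjusted p = 0.857).

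Protease inhibitors and plasmin genes gave 4 of 17 tested members higher and 2 lower (median -0.01). Timp1, an inhibitor of matrix metalloproteases, went from 24.3, 22.6 and 23.2 normalised counts to 309, 182 and 286, the smallest adjusted p of any gene named here (3.46 ± 0.25, adjusted p = 2.02e-08, and 0.0624 with 9 libraries). The TIMP genes differed in direction: Timp4 fell from 33.5, 37.6 and 50.6 to 8.44, 1.71 and 6.93 (-2.86 ± 0.51, adjusted p = 0.0017), and Timp2 fell by 0.86 on the log2 scale (adjusted p = 0.0351, up to 0.203 without sham 2 or any vehicle library). Plau, the gene of urokinase, had an adjusted p of 0.0232 that passed only in the fit without sham 3 among those without 1 library (up to 0.147). Among 24 tested matrix metalloproteases and ADAMTS genes 4 rose and 1 fell (median 0.07). Mmp19 went from 18.4, 22.6 and 15.1 to 152, 66.5 and 194 (2.84 ± 0.36, adjusted p = 1.04e-04). The aggrecan-cutting enzyme gene Adamts4 went from 5.02, 12.2 and 20.5 to 38.6, 30.7 and 49.5 (adjusted p = 0.0466, up to 0.272), and it passed only without sham 3 among the fits without 1 library. Mmp3 (stromelysin), at 0, 1.88 and 16.4 against 86.8, 46.0 and 90.1, missed the threshold (3.86 ± 0.82, adjusted p = 0.0531), with sham 3 apart from the other sham knees. Mmp13, the collagenase best known from osteoarthritic cartilage, had 368, 402 and 466 against 680, 517 and 379 (adjusted p = 0.551). Of 15 tested prostaglandin and leukotriene enzymes only Ptgs2 (cyclooxygenase-2) rose, from 4.19, 3.77 and 8.21 to 73.6, 16.2 and 42.6 (3.05 ± 0.57, adjusted p = 0.0027, and 0.0616 without vehicle 1).

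In the list of recruited monocytes and wound macrophages 9 of 23 tested genes rose and 1 fell (median 0.71). Arg1, arginase of wound macrophages, went from 7.54, 3.77 and 0 normalised counts to 376, 322 and 724 (6.75 ± 0.56, adjusted p = 2.15e-04, and 0.219 with 9 libraries). The scavenger receptor gene Msr1 went from 8.37, 5.65 and 6.84 to 79.6, 60.6 and 92.0 (3.44 ± 0.37, adjusted p = 3.92e-06), Plin2, which coats stored lipid, from 113, 115 and 82.1 to 515, 253 and 436 (1.94 ± 0.24, adjusted p = 4.32e-05) and the galectin gene Lgals3 by 1.33 ± 0.20 (adjusted p = 3.48e-04). Msr1, Plin2 and Lgals3 were called with 9 libraries. Hmox1, heme oxygenase, rose by 1.26 ± 0.24 (adjusted p = 0.00442, and 0.0621 without vehicle 3), and the complement receptor genes C3ar1 and C5ar1 by 2.29 ± 0.42 and 1.12 ± 0.26, the second with a call that ended without sham 1, sham 2, vehicle 1 or vehicle 3 (up to 0.2). Among 15 resident macrophage genes 1 rose and 1 fell (median -0.08). The lectin gene Mgl2 fell from 31.8, 27.3 and 42.4 to 2.41, 2.56 and 3.96 (-3.44 ± 0.55, adjusted p = 5.42e-04), one of the 4 genes called lower with 9 libraries. Mrc1 (adjusted p = 0.951) and Cd163 (adjusted p = 0.891), other receptors of resident cells, and the shared lineage genes Csf1r (adjusted p = 0.744) and Adgre1 (adjusted p = 0.747) did not pass.

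Neutrophils store their antimicrobial proteins in granules, whose genes are active in precursors in the marrow. Of 23 tested genes of secondary granules and neutrophil maturity 6 fell and none rose (median -0.68). Ltf (lactoferrin) fell from 1350, 1088 and 2009 to 431, 674 and 563 (-1.41 ± 0.23, adjusted p = 0.00102, called with 9 libraries). Ngp fell from 2042, 1840 and 2930 to 1060, 918 and 859 (-1.26 ± 0.22, adjusted p = 0.00154, called with 9 libraries, and 0.058 without vehicle 3), and Camp by 1.26 on the log2 scale (adjusted p = 0.00335). Of the 23, 17 had negative and 6 positive values. The chemokine receptor gene Cxcr2, one of the 6, was at 77.0, 65.9 and 54.7 against 132, 74.2 and 99.0, with overlapping groups (adjusted p = 0.31). All 10 primary granule genes had negative values and none was called (Mpo -0.76 ± 0.27, adjusted p = 0.21), although 6 had an unadjusted p below 0.05 and DESeq2 called 1. Cybb, the catalytic subunit of the phagocyte oxidase, fell from 235, 187 and 227 to 91.7, 101 and 100.0 (-1.15 ± 0.20, adjusted p = 0.00125, called with 9 libraries). Of 16 B lineage genes and 18 erythroid genes none was called by edgeR or DESeq2, with 16 and 17 negative values and 4 and 2 unadjusted p below 0.05. With the muscle covariate none of the 6 neutrophil calls held.

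Skeletal muscle genes had the lowest median of the lists, -1.17, with negative values in all 20 tested genes and 6 called lower. Mb (myoglobin) fell from 119, 250 and 287 normalised counts to 47.0, 46.0 and 59.4 (-2.09 ± 0.28, adjusted p = 1.99e-04). Acta1 fell from 2031, 2676 and 5091 to 1553, 1228 and 1368 (-1.24 ± 0.28, adjusted p = 0.0198, up to 0.146 without any 1 vehicle library). Among genes outside the lists, the myosin light chain kinase gene Mylk4 fell from 75.4, 88.5 and 207 to 9.65, 5.97 and 18.8 (-3.40 ± 0.47, adjusted p = 9.11e-04). Of 9 tested genes of muscle stress and regeneration 4 rose and none fell (median 0.21). Trim63 (MuRF1), a ubiquitin ligase of muscle wasting, rose from 11.7, 27.3 and 27.4 to 132, 118 and 52.5 (2.21 ± 0.37, adjusted p = 0.00169), in libraries whose muscle sums were 52.1% of the sham mean. Fbxo32 (atrogin-1), another such ligase, rose by 0.85 ± 0.23 (adjusted p = 0.047) and kept its call only without sham 3 among the fits without 1 library (up to 0.215). With 9 libraries Ankrd1 was the only member of these muscle lists called.

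Adipocyte genes had 4 of 13 tested members lower and none higher (median -0.90). Pck1, an enzyme of glycerol and glucose synthesis, fell from 58.6, 53.7 and 78.0 to 4.82, 5.12 and 3.96 (-3.73 ± 0.42, adjusted p = 7.02e-06, and 0.227 with 9 libraries). Slc2a4, the insulin-responsive glucose transporter of fat and muscle, fell from 51.1, 64.0 and 133 to 25.3, 9.38 and 12.9 (-2.39 ± 0.41, adjusted p = 0.00197), and the lipid droplet gene Cidec by 2.09 on the log2 scale (adjusted p = 0.00897, and 0.0593 without vehicle 2). Adipoq (adiponectin), at 56.9, 45.2 and 67.0 against 38.6, 24.7 and 27.7, did not pass (adjusted p = 0.178). Among other genes with large falls, Cyp2e1, an oxidase of liver and fat, fell by 2.91 on the log2 scale (adjusted p = 6.61e-04), the sarcoglycan gene Sgca by 2.40 (adjusted p = 0.00197) and the glycogen regulator gene Ppp1r3a by 2.06 (adjusted p = 0.0027).

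Of 17 tested fibroblast genes 4 fell and none rose (median -0.71). Clec3b (tetranectin) fell from 33.5, 55.5 and 49.2 to 8.44, 11.1 and 6.93 (-2.35 ± 0.42, adjusted p = 0.0017). Col14a1, a collagen of fibril surfaces, fell from 82.0, 109 and 157 to 36.2, 23.9 and 21.8 (-2.09 ± 0.30, adjusted p = 1.63e-04), and Tnxb (tenascin X) from 266, 344 and 430 to 121, 111 and 151 (-1.44 ± 0.21, adjusted p = 2.49e-04). The calls of Dpt, Gsn and Lum (adjusted p = 0.0145, 0.0161 and 0.0351) ended without sham 2, vehicle 2 or vehicle 3, that of Gsn also without vehicle 1 and that of Lum without any 1 library (up to 0.126, 0.105 and 0.214). Hmcn2 (hemicentin) fell by 2.24 on the log2 scale (adjusted p = 1.51e-04) and Ogn (osteoglycin) by 2.11 (adjusted p = 0.00659, up to 0.0933 without sham 2, vehicle 1 or vehicle 3). None of these was called with 9 libraries or with the muscle covariate. The cartilage list had no call in edgeR among 20 tested genes (median -0.55, and 0.000 without sham 3), with 3 unadjusted p below 0.05 and 1 call by DESeq2. Col2a1, the main cartilage collagen, had 4158, 3351 and 11900 against 4323, 3042 and 4911 (-0.66 ± 0.42, adjusted p = 0.612), and Acan (aggrecan) 282, 241 and 638 against 224, 220 and 280 (adjusted p = 0.448). In both, sham 3 stood apart from the other 5 libraries. None of 18 tested osteoblast and osteocyte genes was called by edgeR or DESeq2, with 1 unadjusted p below 0.05, and Ctsk was the only 1 of 12 osteoclast genes called (-0.78 ± 0.21, adjusted p = 0.0446, up to 0.305 without sham 2, sham 3, vehicle 2 or vehicle 3).

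**Figure D5:**
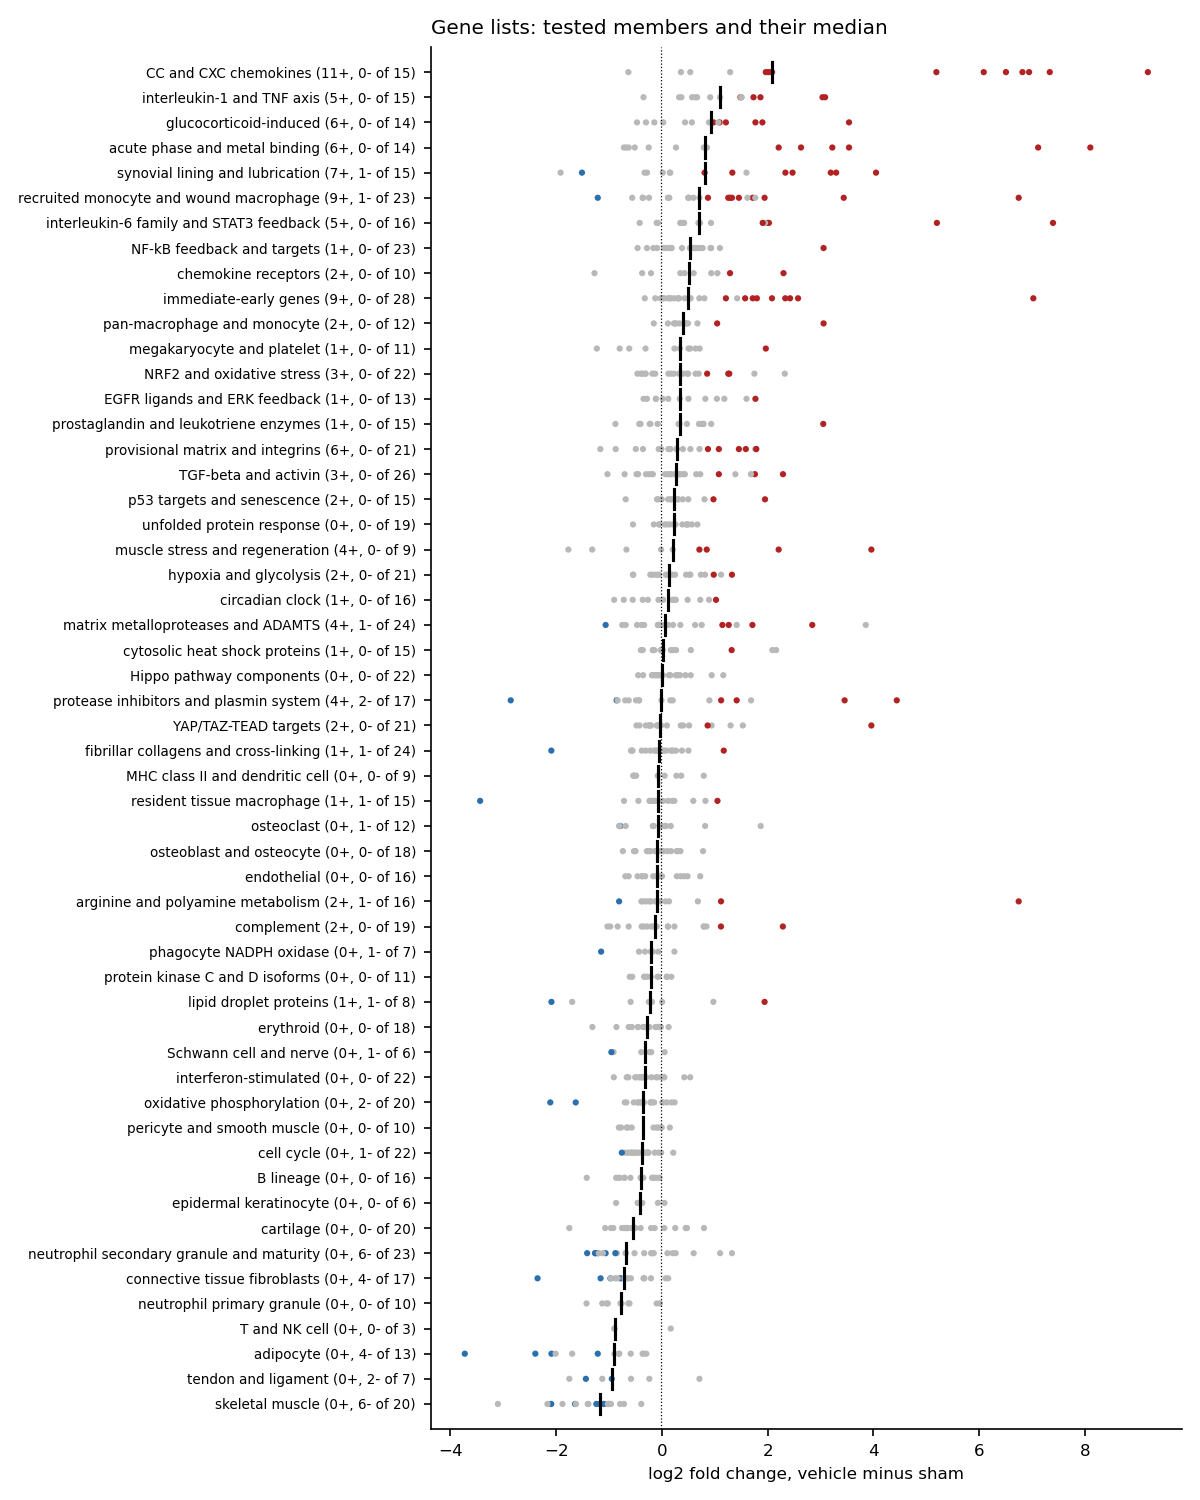
Log2 fold change of every tested member of the 54 gene lists, 1 row per list in the order of the list medians (black bars); red points were called higher, blue points lower, grey points not called, and the dotted line is the median of all genes tested. Members that failed the filter are not drawn, and 7 of the 15 chemokines shown had at most 3 counts in sham knees. The numbers in brackets count members called higher and lower of those tested.

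Among the remaining lists, none of 22 tested interferon-stimulated genes (median -0.32), 19 unfolded protein response genes (median 0.24), 16 endothelial genes or 9 antigen presentation genes was called by edgeR, with 6 or 9 libraries, or by DESeq2, and 2, 3, 2 and 3 of them had an unadjusted p below 0.05. Hypoxia and glycolysis genes had 2 of 21 higher: Hif1a rose from 85.4, 116 and 72.5 to 236, 218 and 236 (1.33 ± 0.21, adjusted p = 4.62e-04), with exon bases shared with Snapc1l, and Eno1 rose by 0.98 ± 0.20 (adjusted p = 0.00717, up to 0.127 without sham 2 or vehicle 3). In the oxidative stress list 3 of 22 rose (Hmox1, Srxn1 and Fth1). The call of Srxn1 ended without sham 2 or vehicle 1 (up to 0.0641), and that of Fth1 (adjusted p = 0.0491) without any 1 library other than sham 3 (up to 0.254). Of 14 glucocorticoid-induced genes 6 rose and none fell (median 0.93), and their summed normalised counts were 860, 1105 and 959 in sham and 2842, 1678 and 1972 in vehicle knees. Much of that rise is Mt2, with means of 64.0 in sham and 756 in vehicle knees, against 975 and 2164 for the whole list. The genes that rose are Mt2, Dusp1 and Errfi1, given above, and Cdkn1a, Angptl4 and Pdk4. Angptl4, a lipase inhibitor, rose by 1.90 ± 0.35 (adjusted p = 0.00239, and 0.0649 without vehicle 3) and Pdk4, a kinase that restrains glucose oxidation, by 1.09 ± 0.22 (adjusted p = 0.00631). Fkbp5, a much used marker of that response, had 61.1, 113 and 87.5 against 136, 82.7 and 137, with overlapping groups (adjusted p = 0.532). The cell cycle inhibitor gene Cdkn1a rose by 0.98 ± 0.21 (adjusted p = 0.0113, up to 0.0641 without vehicle 1 or vehicle 2).

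The small RNA families were compared as shares of all counts. 7SL copies took 97.2%, 97.1% and 97.0% in sham and 98.1%, 96.7% and 97.9% in vehicle libraries, U3 copies 0.364%, 1.14% and 0.277% against 0.554%, 1.01% and 0.769%, and 5S copies 0.0016%, 0.0027% and 0.0020% against 6.91e-04%, 0.0030% and 9.14e-04%. The groups overlapped in each family. The exact permutation test over libraries gave two-sided p = 0.4, 0.6 and 0.6, where 3 against 3 libraries allow no p below 0.1.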

How the data were processed

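Bulk RNA was sequenced from 6 knees, 3 sham and 3 injured with vehicle. Per the file headers, the authors counted read pairs per gene with featureCounts 2.0.1 on GENCODE M25 (mm10), by exon and on the reverse strand, where a multi-mapping read adds to each of its locations and a read over several genes adds to each of them. The aligner HISAT2 is named in the submitters' processing notes. The deposited values are raw counts of 55291 genes. Gene models of 7SL (21), U3 (11) and 5S (313) were left out of the table and of library sizes, since copies share reads.

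Genes were filtered with filterByExpr (minimum count 10), scaled by TMM and tested with edgeR 4.0.16 (quasi-likelihood, robust, two-sided), with Benjamini-Hochberg adjustment over all genes tested and a threshold of 0.05. The script was tested on simulated data. SE is an approximate error of the log2 fold change, worked back from the F statistic of the edgeR test. It does not order genes as the adjusted p of that test does. Mt2, at 3.54 ± 0.51, had an adjusted p of 0.0204, and Il33, at 3.04 ± 0.40, one of 5.02e-05. Counting intervals are exact 95% intervals, lower bounds use 3 counts per library, and both cover counting error only. DESeq2 1.42.0 was an alternative, beside 13 others. Shares of small RNA families were compared by exact permutation (SciPy 1.17.1).

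Genes are named by 4 rules: among called genes with at least 50 normalised counts in the higher group, the 15 largest rises and 10 largest falls; every called list member; the first 4 members of each list; and any other list member with its result. The comparison, the 54 gene lists and these rules were chosen with earlier results of these data known. Values of 27 columns in 2 other tables, whose codes match no sample label, were not used. Results of 2 genes are not reported here.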

Additional observations from a re-analysis of the deposited data

How the results depend on the processing

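The fit with all 9 libraries gave 39 calls, 35 higher and 4 lower, without the low-count filter 509 (245 and 264), and with the muscle covariate 105 (66 and 39), where 65 of the 297 kept their call and 18 changed sign. Leaving out 1 library gave 125 to 354 calls, 86 to 186 higher and 39 to 168 lower. The share of calls that were higher was 57.2% as reported, 89.7% with 9 libraries, 73.5% without vehicle 2 and 68.8% without vehicle 3, and it was 48.1% without the low-count filter, 48.3% without sham 1 and 49.9% with DESeq2. The cause of these shifts was not tested. RLE scaling (298), small RNA copies kept (291), protein-coding genes alone (336) and DESeq2 (359) gave counts within 1.5 times the reported 297. Same-numbered sham and vehicle libraries share only a number, with correlations of their deviations of 0.032, -0.017 and 0.074, and sham 2 correlated best with vehicle 1 (0.034). A fit with the replicate number as a block gave 359 calls, 193 higher and 166 lower, 290 of them among the 297.

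With the muscle covariate the log2 fold change turned to 0.55 for Col1a1, 0.37 for Acta1, 1.41 for Col2a1, 0.18 for Lcn2, -0.14 for Myc, 0.072 for Yap1 and 0.73 for Acan. Without 1 library, Nemf ranged from -12.90 to 0.19, Hbb-bs from -0.82 to 0.26, Col2a1 from -0.98 to 0.11, Prkcd from -0.11 to 0.26, Mrc1 from -0.17 to 0.066 and Adgre1 from -0.12 to 0.57, so that each changed sign. None of these but Acta1 was called. Genes with few sham reads limit the precision: 5 of the called genes had no count in any sham library.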

Other observations

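Genes of replication-dependent histones, which are made in S phase and lack a poly(A) tail, formed a group outside the lists above that was noticed after its values were seen. All 49 tested core genes of these clusters had negative log2 fold changes (median -0.72, between -1.06 and -0.38), and 18 fell. Their summed normalised counts were 48980, 43130 and 32590 in sham 1 to 3 and 22480, 27510 and 25050 in vehicle 1 to 3, so that every injured knee lay below every sham knee. In the separate list of 22 cell cycle genes 21 values were negative (median -0.38), 1 gene fell and 8 had an unadjusted p below 0.05, with summed normalised counts of 7002, 5859 and 4878 in sham and 3835, 6188 and 4675 in vehicle knees, where the groups overlapped. The copies share near-identical coding sequence, and reads that map to several were counted at each, so that the 49 values are not independent. DESeq2 called 27 lower and the fit with the muscle covariate 21, the 9-library fit called none, and the fits without 1 library called between 0 and 43.

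Some genes outside the lists are given for their size, and were chosen after their values were seen. Ptx3 (pentraxin 3), a soluble pattern recognition protein, went from 0.837, 4.71 and 2.74 normalised counts in sham 1 to 3 to 146, 68.2 and 40.6 in vehicle 1 to 3 (log2 fold change 4.90 ± 0.59, adjusted p = 9.66e-05). The cell adhesion gene Chl1 went from 0.837, 2.82 and 0 to 33.8, 37.5 and 69.3 (5.02 ± 0.63, adjusted p = 3.44e-05). Both groups were well apart in each gene, and neither gene was called with 9 libraries. The lysosomal protease genes Ctsl and Lgmn rose by 1.73 ± 0.22 (adjusted p = 3.52e-05) and 1.68 ± 0.26 (adjusted p = 0.00111), and both were called with 9 libraries. Ctsl shares exon bases with Gm49230.

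Filamin C (Flnc), an actin cross-linker of muscle, rose from 187, 152 and 249 to 587, 413 and 542 (1.40 ± 0.21, adjusted p = 3.22e-04) while the slow muscle genes Myl2 and Myl3 fell by 3.32 and 3.71 on the log2 scale (adjusted p = 0.0269 and 0.00636). Leaving out sham 2 ended both of the latter calls, with adjusted p up to 0.226 and 0.0648. Col6a6, a collagen VI chain, had 61 reads over all sham knees and 1 over all injured knees (adjusted p = 7.99e-04). The growth factor gene Igf2 and the matricellular gene Ccn3 fell by 1.66 and 2.44 on the log2 scale (adjusted p = 0.00205 and 0.00184). The antisense transcript Gm49774 had 0.837, 1.88 and 1.37 against 133, 27.3 and 17.8 (adjusted p = 0.0314), a call that ended without any 1 of the sham libraries (up to 0.313).

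All 37 mitochondrial genes had 0 counts in the table. The nuclear copies Gm28661 and Gm10925 of mitochondrial sequence held many counts, at 284500, 252900 and 370200 in sham and 241000, 161500 and 91140 in vehicle knees for Gm28661 (-0.88 ± 0.51, adjusted p = 0.53), and did not pass.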
